A study of Homo sapiens with 9 samples.

Results

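The 10 genes described here code for the FOS and JUN proteins of the transcription factor AP-1 and for other immediate early proteins: FOS, FOSB, FOSL1, FOSL2, JUN, JUNB, JUND, EGR1, IER2 and KLF10. They were taken by symbol, and all 10 were found among the 61853 genes of the deposited count table. RNA was measured in 293T cells, a long-established line of human embryonic kidney origin with the SV40 large T antigen, labelled wild type. The cells received either a scramble shRNA (Scramble, 3 libraries) or DIS3-sh1, an shRNA against DIS3 (3 libraries), and the series' design text calls the replicates biological. DIS3 is a catalytic ribonuclease of the RNA exosome, the complex that degrades RNA from its 3′ end. The DIS3-sh2 group was not analysed here, so each result below rests on 1 shRNA, and an effect of lower DIS3 and another effect of that shRNA cannot be told apart. The dose and duration of the shRNA treatment are not given in the sources used here. RNA was depleted of ribosomal RNA and sequenced as total RNA.

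AP-1 is a pair of basic leucine zipper (bZIP) proteins. A JUN protein pairs with another JUN or with a FOS protein, while FOS proteins need a JUN partner to bind DNA. Immediate early genes are switched on within minutes of a growth factor or stress signal, without new protein synthesis, through kinases that act on factors already waiting at their promoters. Most of their mRNAs are short-lived, and many carry AU-rich elements in the 3′ untranslated region (UTR) that recruit decay factors, the exosome among them. JUND is the usual exception, since it is made steadily in resting cells.

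In these cells the JUN side of AP-1 was abundant and the FOS side was scarce. JUN, JUND and KLF10 rose in DIS3-sh1, by 1.69-fold, 1.63-fold and 2.56-fold. JUNB, FOSB and FOSL2 fell, to 0.781, 0.511 and 0.835 of their Scramble levels. FOS, EGR1 and IER2 were tested and did not pass the threshold, and FOSL1 was too low to be tested. The 10 genes thus held 3 called higher and 3 called lower, out of 9 tested. Across all 19591 genes tested, 67.0% were called, 34.5% higher and 32.6% lower, so 6 of 9 was close to the share in the whole table.

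The promoters of these genes show what the members share in sequence. RefSeq promoter sequences (GRCh38.p14) were at hand for 8 of the 10 genes, with FOSL1 and KLF10 the other two. In the 250 bases before the annotated start, all 8 held TGACG on at least 1 strand, the core of the site bound by CREB, ATF and AP-1 family proteins. It was present in 21.7% of 27305 promoters of the same length. That share was not matched for G and C content, which was 62% to 74.8% in these 8 promoters against a median of 58%. The 30-base window around the copy nearest each start is shown 5′ to 3′ on the gene's own strand, with the core in capitals (CGTCA is the same core read on the other strand).
JUN (chr1:58784154-58784183, minus strand): ggagtctccatggTGACGggcgggcccgcc
JUND (chr19:18281692-18281721, minus strand): tgcaaatgagcgaCGTCAcccgcacccaat
JUNB (chr19:12791336-12791365, plus strand): cgcttcctgacagTGACGcgagccgcctcc
FOSL2 (chr2:28392779-28392808, plus strand): tggagtctggggtTGACGtgagtgaatcca
FOSB (chr19:45467923-45467952, plus strand): agcaaggggcgggTGACGtaagcagggggg
FOS (chr14:75278751-75278780, plus strand): gtggttgagcccgTGACGtttacactcatt
EGR1 (chr5:138465400-138465429, plus strand): atatggccatgtaCGTCAcgacggaggcgg
IER2 (chr19:13150258-13150287, plus strand): ccacccccgccccCGTCAcgccaccatcga

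Within these 250 bases, rarer elements separated the promoters from each other. Sequence farther upstream was not searched, so an element absent here, such as a CArG box in the other genes, may lie beyond the window. The proximal JUN site TGACATCA, known from the JUN promoter as a place where JUN and ATF2 bind, was found in JUN among the 8 genes and in 2.45% of all promoters. The full cAMP response element TGACGTCA was found in JUND and in 1.77% of all promoters, and each copy also counts as a TGACG core. CArG boxes, the sites of serum response factor, were found in EGR1 and in 1.14% of all promoters. The canonical AP-1 site (TGAGTCA or TGACTCA) was found in 4.16% of promoters and in 0 of the 8 genes. These letters were searched on both strands, and a match or its absence says nothing by itself about binding. The 3 windows below show the named element in capitals.
JUN proximal site (chr1:58784096-58784125, minus strand): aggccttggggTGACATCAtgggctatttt
JUND cAMP response element (chr19:18281804-18281833, minus strand): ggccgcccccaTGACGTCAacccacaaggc
EGR1 CArG boxes (chr5:138465370-138465409, plus strand): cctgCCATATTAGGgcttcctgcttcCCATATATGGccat

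The close relatives JUND and JUNB moved in opposite directions, and the part of their promoters in this was not tested. Their 150 bases before the start are shown because the exact letters TATAAA were found in JUNB and not in JUND. The JUND sequence holds the similar letters TATAAG close to the start, which the search for exact letters did not count. Capitals mark the TGACG core nearest the start and, in JUNB, the letters TATAAA.
JUND (chr19:18281623-18281772, minus strand): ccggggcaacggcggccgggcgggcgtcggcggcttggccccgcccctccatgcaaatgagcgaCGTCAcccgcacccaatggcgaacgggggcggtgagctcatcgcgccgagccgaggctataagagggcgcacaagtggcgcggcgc
JUNB (chr19:12791336-12791485, plus strand): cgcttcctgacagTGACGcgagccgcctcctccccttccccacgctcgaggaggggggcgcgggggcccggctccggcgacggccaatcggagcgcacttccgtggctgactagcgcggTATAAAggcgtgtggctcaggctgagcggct
TATAAA was found in FOS, FOSB and JUNB and in 11.1% of all promoters. The GC box GGGCGG was found in JUN, JUND, FOS, FOSB, FOSL2 and IER2 and in 42.3% of all promoters. CCAAT was found in JUN, JUNB and JUND and in 33.0% of all promoters. The 8 promoters held between 62% and 74.8% G and C, and the median of all promoters was 58%. The RefSeq starts of JUN, FOSL2, FOS and FOSB lie 280, 410, 54 and 1 bases inside the gene as GENCODE 29 draws it.

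**Figure D1:**
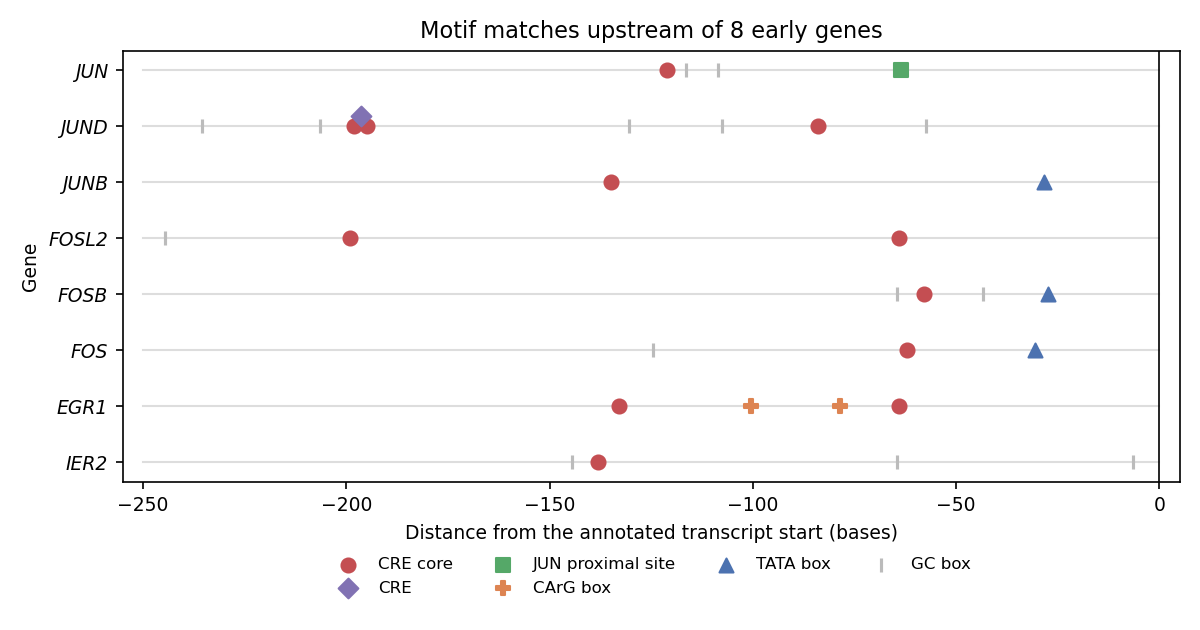
Positions of motif matches in the 250 bases before the RefSeq start of 8 genes. The horizontal axis is the distance from the annotated start in bases, each row is a gene and each symbol a motif match at its centre. All 8 rows carry at least 1 TGACG core (CRE core in the legend), the 2 CArG boxes are in the EGR1 row, and in the rows of FOS, FOSB and JUNB the TATA box is the match nearest the start.

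The libraries held 19800892 to 23532148 counts, so 1 CPM, the unit of a count scaled to library size, stood for 20.1 to 23.2 counts. The scaling is TMM, which also corrects for library composition. The target DIS3 was lower in every DIS3-sh1 library, at 27.4 ± 0.717 CPM against 180 ± 5.63 CPM in Scramble (SD, n = 3 each; log2 fold change -2.71 ± 0.04 SE, adjusted p = 6.76e-30 by edgeR's quasi-likelihood test). All 8 markers of 293T cells were above 1 CPM in all 6 libraries, with summed levels of 1630 to 1648 CPM in Scramble and 1655 to 1678 CPM in DIS3-sh1. VIM made up most of that sum (1221 and 1295 CPM), and single markers moved: PAX2, VIM, KRT8 and KRT18 rose, NEFL, NEFM and LIN28B fell, and GATA3 was not called. KRT8 went from 4.64 to 32.6 CPM (7.01-fold), PAX2 from 1.66 to 4.33 CPM (2.57-fold) and LIN28B from 172 to 103 CPM (0.597 of Scramble), and the part of these in the results below was not tested. Of 4 blood, 3 endothelial and 3 hepatocyte markers none was above 1 CPM in all libraries, and CD3E was at 0 in each. The 3 fibroblast markers summed to 14.5 to 15.6 CPM in Scramble and 24.1 to 28.2 CPM in DIS3-sh1, nearly all of it COL1A1, and its part in the results was not tested either. Fewer cells expressing a gene and less RNA per cell cannot be told apart in such bulk samples.

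JUN, the main partner in AP-1 and a target of JNK phosphorylation, was the most abundant of the 10 genes and rose in DIS3-sh1. Its locus (ENSG00000177606.8) spans 58780788 to 58784327 on chromosome 1, minus strand, in hg38. Scramble libraries gave 271.5, 274.9 and 273.4 CPM, and DIS3-sh1 libraries gave 465.6, 458.6 and 458.4 CPM. The 2 groups were far apart and each was tight, with SDs of 1.73 and 4.12 CPM. The log2 fold change was 0.75 ± 0.03 (SE; 95% interval 0.70 to 0.81), a 1.69-fold difference, with an adjusted p of 7.96e-22. With 17660.5 counts in Scramble and 28715.5 in DIS3-sh1, it was also the most deeply counted of the 10 genes.

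JUND, the JUN protein that slows proliferation in many cell types, rose by nearly the same amount. Its locus (ENSG00000130522.6) spans 18279760 to 18281622 on chromosome 19, minus strand, in hg38. Its level was 43.6, 38.6 and 44.9 CPM in Scramble and 71.4, 66.2 and 70.0 CPM in DIS3-sh1, and the groups did not overlap. JUND thus differed by 0.71 ± 0.05 on the log2 scale (95% interval 0.60 to 0.82, adjusted p = 3.83e-13). Replicate 2 was the lowest library of JUND in both groups.

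JUNB, the JUN protein that is often a weaker activator and can antagonise JUN, fell. Its locus (ENSG00000171223.6) spans 12791496 to 12793315 on chromosome 19, plus strand, in hg38. It measured 10.3, 9.76 and 10.2 CPM in Scramble and 8.59, 7.63 and 7.45 CPM in DIS3-sh1. Every DIS3-sh1 library was below every Scramble library, with DIS3-sh1 replicate 1 the closest. JUNB gave a log2 fold change of -0.36 ± 0.10 (95% interval -0.57 to -0.14, adjusted p = 0.00329), a level 0.781 of that in Scramble. JUNB thus went against JUN and JUND, with intervals that lay on opposite sides of 0.

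**Figure D2:**
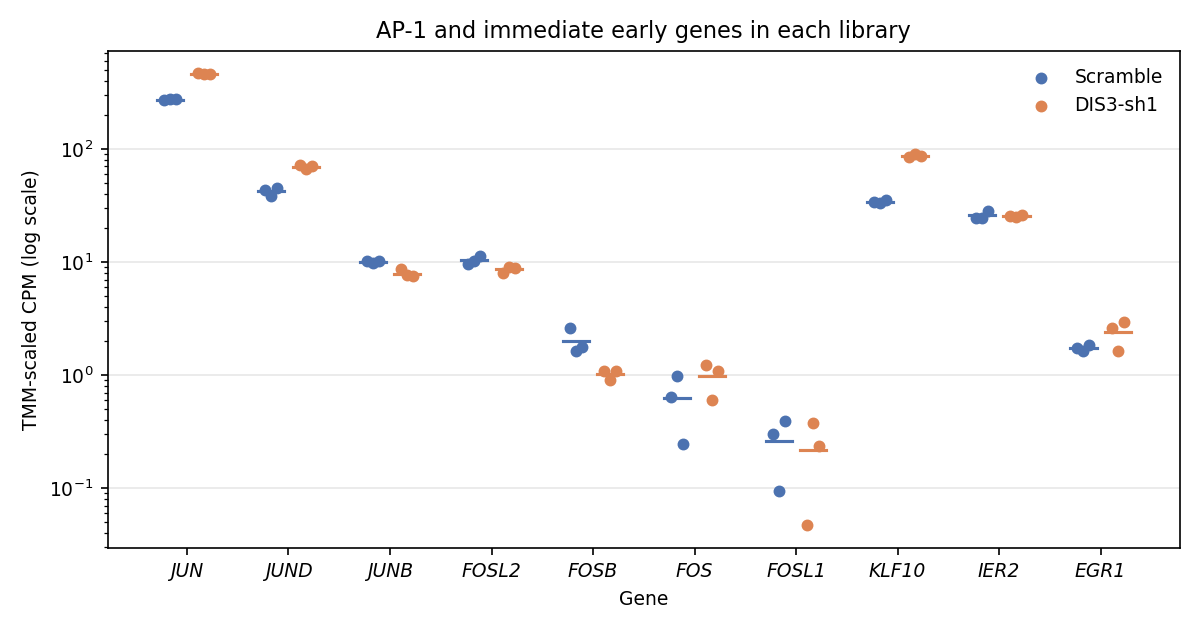
Level of the 10 genes in each of the 6 libraries. The vertical axis is TMM-scaled CPM on a log scale, each point is a library, and each short line is the mean of a group of 3. The points of JUN, JUND and KLF10 are higher in DIS3-sh1 without overlap, those of JUNB, FOSL2 and FOSB are lower without overlap, and the groups of FOS, FOSL1, IER2 and EGR1 overlap.

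FOSL2, also called FRA2, was the most abundant FOS gene and was slightly lower in DIS3-sh1. Its locus (ENSG00000075426.12) spans 28392448 to 28417312 on chromosome 2, plus strand, in hg38. It measured 9.62, 10.3 and 11.3 CPM in Scramble and 8.05, 9.08 and 8.90 CPM in DIS3-sh1. The groups did not overlap, but the highest DIS3-sh1 library was close to the lowest Scramble library. FOSL2 gave a log2 fold change of -0.26 ± 0.10 (95% interval -0.47 to -0.05, adjusted p = 0.0278). The call was lost with upper-quartile scaling (log2 fold change -0.18, adjusted p = 0.127) and with DESeq2 (adjusted p = 0.0619). It was also lost when Scramble replicate 3 (adjusted p = 0.134) or DIS3-sh1 replicate 1 (adjusted p = 0.112) was left out.

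FOSB, an inducible FOS protein known from neurons as the source of the long-lived ΔFosB, fell the most of the 9 tested genes. Its locus (ENSG00000125740.14) spans 45467995 to 45475179 on chromosome 19, plus strand, in hg38. Its counts were 61, 34.33 and 36 in Scramble and 23, 18 and 23 in DIS3-sh1, or 2.63, 1.64 and 1.76 CPM against 1.08, 0.898 and 1.09 CPM. Scramble replicate 1 stood above the other libraries, and even the lowest Scramble library was above all of DIS3-sh1. The log2 fold change was -0.97 ± 0.27 (95% interval -1.51 to -0.43, adjusted p = 0.00194). This value lay between -1.11 and -0.72 over the 11 other settings, and the call was kept in each.

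FOS, the founding member of the family and the classic serum-induced gene, was low, with 5 to 26 counts in a library. Its locus (ENSG00000170345.10) spans 75278774 to 75282230 on chromosome 14, plus strand, in hg38. It had 15, 20.5 and 5 counts in the Scramble libraries and 26, 12 and 23 counts in the DIS3-sh1 libraries, or 0.646, 0.977 and 0.245 CPM against 1.22, 0.598 and 1.09 CPM. The groups overlapped, since DIS3-sh1 replicate 2 was below 2 of the Scramble libraries. FOS had a log2 fold change of 0.66 ± 0.39, with a 95% interval from -0.14 to 1.45 (adjusted p = 0.137), which includes 0. Without Scramble replicate 2 the value was 1.09 and was called (adjusted p = 0.0408).

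FOSL1, also called FRA1 and a common AP-1 subunit of invasive tumour cells, was almost silent. Its locus (ENSG00000175592.9) spans 65892049 to 65900573 on chromosome 11, minus strand, in hg38. It had 7, 2 and 8 counts in Scramble and 1, 7.5 and 5 counts in DIS3-sh1, which sum to 17 and 13.5. Both groups ran over almost the same range. The expression filter removed it before the test. Without the filter its log2 fold change was -0.22 ± 0.68 (95% interval -1.56 to 1.12, adjusted p = 0.831), an interval that leaves room for a change of either sign.

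KLF10, a zinc finger repressor induced early by TGF-β, changed more than the other 8 tested genes. Its locus (ENSG00000155090.15) spans 102648779 to 102655902 on chromosome 8, minus strand, in hg38. It measured 33.9, 33.3 and 35.3 CPM in Scramble and 84.6, 90.8 and 86.7 CPM in DIS3-sh1. The groups lay far apart, with the lowest DIS3-sh1 library at 84.6 CPM and the highest Scramble library at 35.3 CPM. KLF10 had a log2 fold change of 1.35 ± 0.05 (95% interval 1.26 to 1.45, adjusted p = 3.40e-21), a 2.56-fold rise. Of all genes tested, 5.56% had a larger increase, against 15.5% for JUN and 16.9% for JUND.

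IER2, a small nuclear early response protein, gave nearly equal levels in the groups. Its locus (ENSG00000160888.7) spans 13150415 to 13154908 on chromosome 19, plus strand, in hg38. It measured 24.5, 24.6 and 28.5 CPM in Scramble and 25.7, 24.8 and 26.2 CPM in DIS3-sh1, so the DIS3-sh1 libraries fell within the Scramble range. On the log2 scale the difference was -0.02 ± 0.07 (95% interval -0.16 to 0.13, adjusted p = 0.856). Its interval excluded a change as large as that of JUN, JUND or KLF10. The sign of this small value turned with upper-quartile scaling, when Scramble replicate 3 was left out and when DIS3-sh1 replicate 2 was.

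EGR1, the zinc finger factor read out most often as a marker of ERK signalling, was low in these cells and did not pass the test. Its locus (ENSG00000120738.8) spans 138465490 to 138469315 on chromosome 5, plus strand, in hg38. It had 40, 34 and 37.5 counts in Scramble and 56, 32.5 and 62.5 counts in DIS3-sh1, or 1.72, 1.62 and 1.83 CPM against 2.64, 1.62 and 2.97 CPM. DIS3-sh1 replicates 1 and 3 were above all Scramble libraries and replicate 2 was level with the lowest. The log2 fold change was 0.47 ± 0.23 (95% interval 0.0047 to 0.94, adjusted p = 0.0691). Without DIS3-sh1 replicate 2 it was 0.69 and was called (adjusted p = 0.0101), and with upper-quartile scaling it was 0.55 and was called (adjusted p = 0.0341). DIS3-sh1 replicate 2 was also the lowest DIS3-sh1 library of FOS and FOSB.

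**Figure D3:**
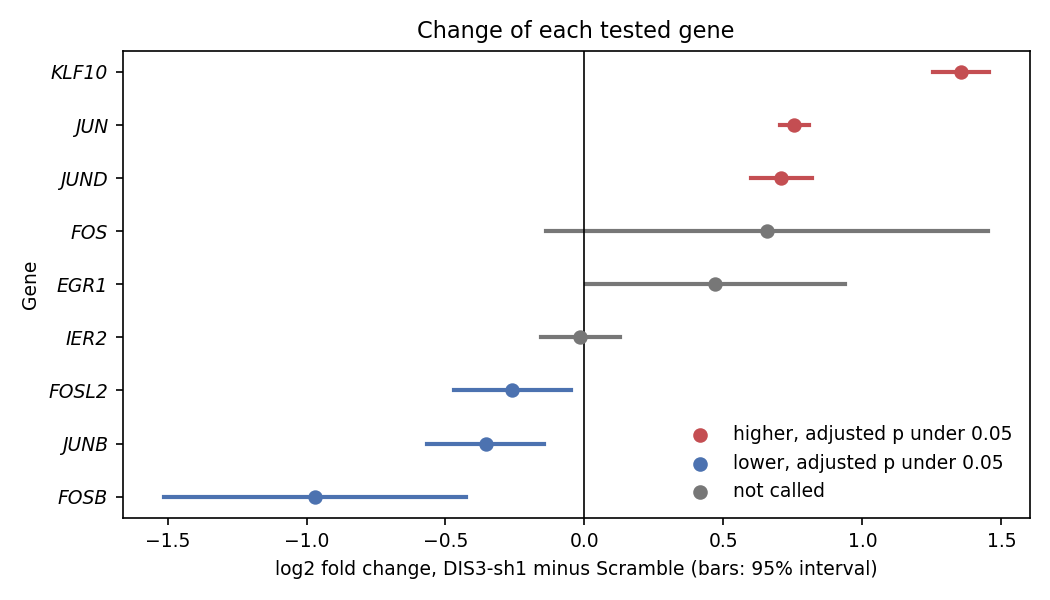
Log2 fold change (DIS3-sh1 minus Scramble) of the 9 tested genes, with 95% intervals as bars. KLF10, JUN and JUND lie right of 0 with short bars, FOSL2, JUNB and FOSB lie left of 0, and the intervals of FOS and IER2 cross 0.

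The groups of 6 of the 9 tested genes did not overlap, against 69.8% of all genes tested. Both shares depended on expression. Of 7293 tested genes under 5 CPM in Scramble 49.5% were called, and of 12099 genes between 5 and 500 CPM 77.2% were called, with these bands set after the values were seen. The 6 genes above 5 CPM (JUN, JUND, KLF10, IER2, FOSL2 and JUNB) gave 5 calls, and the 3 tested genes below it (FOSB, EGR1 and FOS) gave 1. The median log2 fold change of the 9 genes was 0.47, against 0.02 over all tested genes, with values from -0.97 to 1.35. This median is the value of a single gene, EGR1, which was not called, so it does not show a shift of the set.

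Per length of exon, the order of the genes was nearly the same in both groups. The length is the union of all annotated exons of a gene, 3238 bases for FOS and 5553 for FOSB. It can exceed the length of a single transcript, which lowers the scaled level. CPM per kilobase of exon in Scramble was 77.2 ± 0.488 for JUN, 22.8 ± 1.79 for JUND, 8.53 ± 0.261 for KLF10 and 8.42 ± 0.739 for IER2. It was 5.54 ± 0.155 for JUNB, 1.45 ± 0.122 for FOSL2, 0.550 ± 0.0341 for EGR1, 0.362 ± 0.0972 for FOSB, 0.192 ± 0.113 for FOS and 0.139 ± 0.0804 for FOSL1 (SD, n = 3 each). In this order the neighbours KLF10 and IER2, FOSB and FOS, and FOS and FOSL1 overlapped between libraries, and the other neighbours did not.

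In DIS3-sh1 the length-scaled levels were 130.2 ± 1.17 for JUN, 37.2 ± 1.45 for JUND, 21.8 ± 0.786 for KLF10, 8.32 ± 0.233 for IER2 and 4.34 ± 0.337 for JUNB. FOSL2 stood at 1.21 ± 0.0768, EGR1 at 0.768 ± 0.225, FOS at 0.300 ± 0.102, FOSB at 0.185 ± 0.0199 and FOSL1 at 0.116 ± 0.0870. KLF10 and IER2, which overlapped in Scramble, were now apart. FOS and FOSB changed places, but the libraries of FOS, FOSB and FOSL1 overlapped, so that their order is not settled.

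The JUN genes together measured 105.7, 103.8 and 107.0 CPM per kilobase in Scramble and 174.6, 169.3 and 171.2 in DIS3-sh1. The FOS genes together measured 2.18, 2.08 and 2.18 in Scramble and 1.72, 1.81 and 1.90 in DIS3-sh1. Neither sum overlapped between the groups. The ratio of the JUN sum to the FOS sum was 49.1 ± 0.656 in Scramble and 94.9 ± 5.89 in DIS3-sh1 (SD, n = 3 each). It is a description chosen after the values were seen and without a test. The lengths used may place the FOS genes, which have more exons, too low in this ratio.

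Within the JUN family the make-up shifted away from JUNB. JUN made up 72.2% to 74.9% of the family's length-scaled CPM in Scramble and 75.3% to 76.5% in DIS3-sh1. JUNB made up 5.17% to 5.34% and then 2.39% to 2.70%, and JUND 19.98% to 22.55% and then 21.00% to 21.96%. The ranges of JUND overlapped and those of JUN and JUNB did not. In the FOS family, FOSL2 made up 61.8% to 72.5% in Scramble and 65.3% to 70.0% in DIS3-sh1. FOSB went from 14.2% to 21.7% in Scramble to 8.92% to 11.3%, with no overlap, while FOS (3.46% to 14.5%, then 10.2% to 21.9%) and FOSL1 (2.43% to 9.49%, then 1.45% to 10.9%) overlapped widely.

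**Figure D4:**
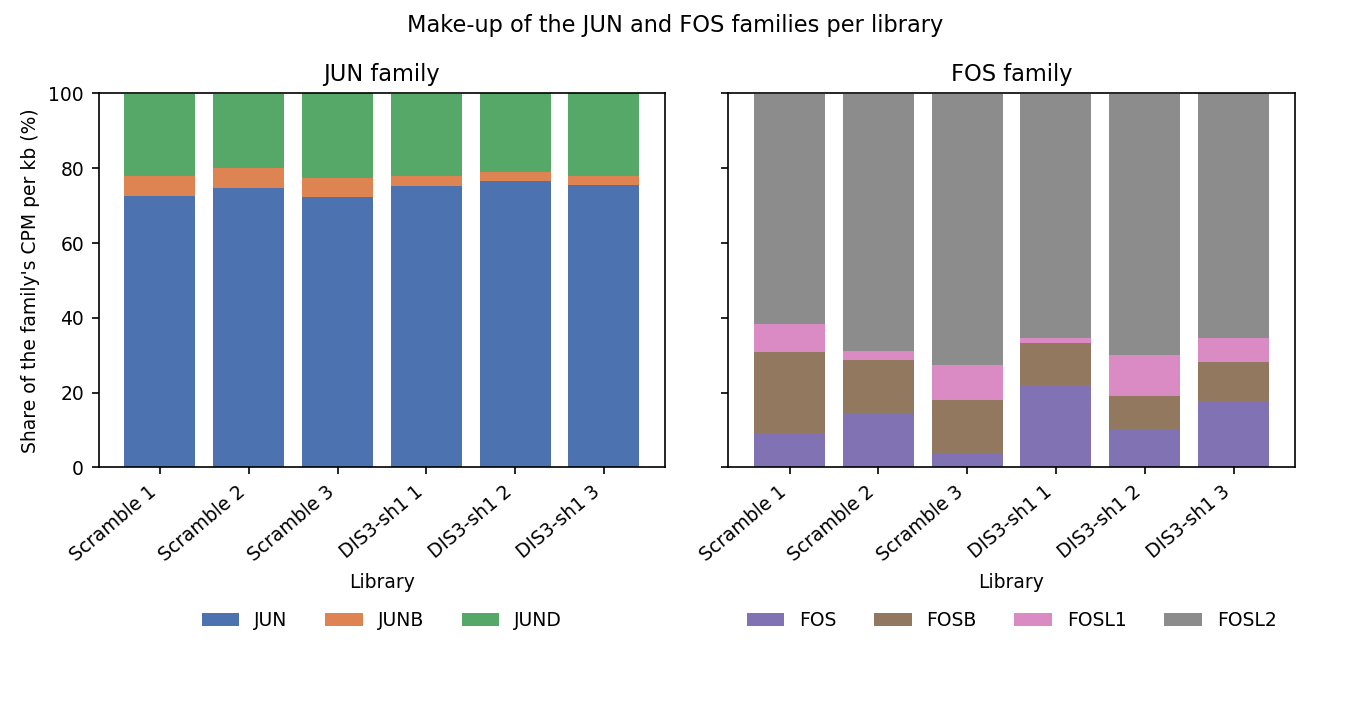
Share of each gene in the summed CPM per kilobase of its family, in percent, for each of the 6 libraries. JUN takes at least 72.2% of the JUN family in every bar, the JUNB band is narrower in the 3 DIS3-sh1 bars, and FOSL2 takes at least 61.8% of the FOS family.

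Several of these genes share their locus with another transcript, and the use of strand in the authors' counting is not given in the sources used here. Reads of genes that overlap on opposite strands therefore may not be separated. The annotated span of HOOK2, which codes for a dynein adaptor, covers all 1820 bases of JUNB on the opposite strand. HOOK2 measured 9.45, 8.15 and 7.35 CPM in Scramble and 16.2, 16.0 and 15.2 CPM in DIS3-sh1 (log2 fold change 0.92 ± 0.10, adjusted p = 1.02e-09). It rose while JUNB fell. The span of ERCC1, a DNA repair nuclease subunit, covers all 7185 bases of FOSB and had a log2 fold change of 0.17 ± 0.06 (adjusted p = 0.0121), against -0.97 for FOSB. The call of ERCC1 was lost without Scramble replicate 3 and without DIS3-sh1 replicate 3.

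JUN and KLF10 each have a non-coding neighbour on the opposite strand, at low levels. LINC01135 starts 800 bases upstream of JUN and measured 0.818, 1.24 and 0.783 CPM in Scramble and 1.53, 2.54 and 1.62 CPM in DIS3-sh1 (log2 fold change 0.99 ± 0.29, adjusted p = 0.00305). An unnamed transcript (ENSG00000283959.2) starts 561 bases upstream of KLF10 and is annotated as a bidirectional promoter RNA. It had 5, 6 and 3 counts in Scramble and 31, 23 and 20 counts in DIS3-sh1, a log2 fold change of 2.42 ± 0.42. It passed the expression filter only through the DIS3-sh1 libraries, so it had to differ to be tested, and its values are given as a description.

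Other neighbours within 5000 bases moved little. PRDX2, near JUNB, was called higher by 0.09 on the log2 scale (adjusted p = 0.0210), a call lost without the expression filter, with DESeq2 and without Scramble replicate 1 or 2. STX10, which starts 31 bases upstream of IER2 on the opposite strand, differed by 0.07 (adjusted p = 0.361) and was called with upper-quartile scaling (0.15). FIBP and CCDC85B, near FOSL1, differed by 0.04 and -0.06 and were not called. Another 9 neighbours were too low to be tested, and FOSL2-AS1 had 0 counts in all 6 libraries.

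The members differ in gene structure and in AU-rich sequence. In the transcript chosen for each gene from GENCODE 29, JUN, JUNB, JUND and IER2 have 1 exon, EGR1 has 2, and FOS, FOSB, FOSL1, FOSL2 and KLF10 have 4. The intronless genes rose (JUN, JUND), fell (JUNB) and were not called (IER2). Of 370 tested single-exon coding genes, 25.1% were called higher and 39.7% lower, with a median log2 fold change of -0.14. Of all 13515 tested coding genes with a chosen transcript, 36.4% were higher and 38.9% lower.

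The pentamer ATTTA, the unit of AU-rich elements, was counted in the 3′ UTR. It occurred 9 times in the 4864 bases of FOSL2, 5 times in the 806 bases of FOS, 3 times each in FOSB, JUN and KLF10, and 2 times in the 500 bases of JUNB. FOSL1, JUND and EGR1 held 1 copy and IER2 held 0. The longer nonamer TTATTTATT was present in FOS and FOSL2, and in 8.49% of tested coding genes. The 30-base windows below show the densest stretch of 4 genes, with pentamers in capitals, where ATTTATTTA is a pair that shares its middle A.
FOS (bases 633 to 662 after the stop codon): ttgtgtttttaATTTATTTAttaagatgga
FOSL2 (bases 3900 to 3929 after the stop codon): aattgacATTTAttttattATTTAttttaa
JUN (bases 710 to 739 after the stop codon): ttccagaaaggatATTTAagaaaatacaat
JUNB (bases 244 to 273 after the stop codon): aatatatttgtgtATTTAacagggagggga
The windows of FOS and FOSL2 hold 2 pentamers, and those of JUN and JUNB hold 1. With 3 copies each, JUN and KLF10 rose and FOSB fell. FOSL2 (9 copies) and JUNB (2 copies) fell, JUND (1 copy) rose, and FOS (5 copies), EGR1 and IER2 were not called. The part of the pentamers in these changes was not tested. Across all tested coding genes, 34.6% of the 3951 with 5 or more pentamers were higher and 42.6% were lower, against 39.8% and 34.1% of the 4182 with none. The medians of these classes were -0.05 and 0.05 on the log2 scale. The nonamer gave nearly equal shares. Of the 1147 genes that hold it 35.7% were higher and 39.4% lower, against 36.4% and 38.8% of the 12368 that lack it. Their medians were -0.02 and -0.01. None of these classes was matched for the length of the 3′ UTR.

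Genes for bZIP proteins, JUN and FOS partners among them, moved in both directions. Of 24 listed genes 23 were tested, and 10 rose and 10 fell, with a median log2 fold change of -0.00. Beside this and the lists below, 36.4% of 13515 tested coding genes with a chosen transcript were higher and 38.9% lower. BATF2, named after its values were seen, is 1 of the 10 that rose. It had 3, 0 and 1 counts in Scramble and 21, 29 and 17 in DIS3-sh1. BATF2 passed the filter only through DIS3-sh1, so it had to differ to be tested. The same limit holds for any such gene in the lists below. ATF3, a stress-induced repressor that dimerises with JUN, stood at 35.8 ± 2.71 CPM in Scramble and rose to 82.3 ± 2.52 CPM (1.20 on the log2 scale, adjusted p = 3.85e-19). DDIT3, the stress factor CHOP, rose from 4.11 ± 0.634 to 12.0 ± 0.648 CPM (1.55, adjusted p = 8.10e-13), and CEBPG (0.64) and BACH1 (0.63) rose too. MAFF, CREM and MAF, chosen here for not being called, differed by 0.52, -0.10 and -0.00, and BATF had 0 counts in every library.

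Among 35 other immediate early genes, 33 were tested, 14 rose and 11 fell, with a median of 0.16. RHOB, an early-induced small GTPase, rose from 76.2 ± 0.622 to 139 ± 6.70 CPM (0.87, adjusted p = 1.63e-18). TRIB1 (0.83), a pseudokinase, and GADD45A (1.01), a growth arrest and DNA damage gene, rose, and MCL1, an anti-apoptotic protein with a short-lived mRNA, fell from 207 ± 3.74 to 146 ± 2.90 CPM (-0.51, adjusted p = 3.22e-15). EGR3 and EGR4, relatives of EGR1, were too low to be tested.

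Of 27 genes of the MAP kinase cascades that signal to AP-1, all tested, 10 rose and 13 fell, with a median of -0.14. MAPK3, a kinase of the growth factor branch, rose from 60.1 ± 1.39 to 87.5 ± 5.68 CPM (0.54, adjusted p = 8.96e-12). MAPK14, the main p38 kinase, fell (-0.51), and RPS6KA2, a kinase downstream of ERK, rose (1.18). MAPK13, MAPK11, MAPK9 and MAP2K2, chosen for not being called, differed by -0.64, 0.23, 0.03 and 0.03.

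Of 13 genes for feedback inhibitors of MAP kinases 11 were tested, 4 rose and 3 fell, with a median of 0.24. The phosphatases DUSP8 (1.29), DUSP10 (0.83) and DUSP16 (0.27) and the inhibitor SPRY2 (0.28) rose, and DUSP7 (-0.58), SPRY1 (-0.59) and SPRED1 (-0.24) fell. DUSP16, SPRY2 and SPRED1 were named after their values were seen. The others, DUSP5, SPRED2, DUSP4 and SPRED3, were not called, and DUSP6 and SPRY4 were too low to be tested.

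Of 16 genes listed for factors at early gene promoters, all tested, 3 rose and 8 fell, with a median of -0.17. The related acetyltransferases EP300 (-0.55) and CREBBP (-0.49) fell, EP300 from 284 ± 7.31 to 195 ± 1.36 CPM (adjusted p = 7.60e-17). TCF3 (-0.46), also among the 8 that fell, codes for an E protein and not for an ELK-type partner of SRF. Its place at early gene promoters is not established here. STAT3 rose (0.45), as did CRTC1 (0.42) and MEF2D (0.34), the last 2 named after their values were seen. SRF, which binds CArG boxes, and its partner ELK1, also named afterwards, fell by 0.27 and 0.37 on the log2 scale. ELK4, ELK3, MEF2C, CRTC3 and MEF2A were not called.

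Of 12 genes for proteins that bind 3′ UTRs, all tested, 2 rose and 9 fell, with a median of -0.24. Among 13515 tested coding genes with a chosen transcript, 36.4% were higher and 38.9% lower. HNRNPD (AUF1), which binds AU-rich elements, fell from 542 ± 9.83 to 276 ± 14.6 CPM (-0.98, adjusted p = 7.35e-23). KHSRP, a decay-promoting AU-rich element binder, fell from 718 ± 10.1 to 450 ± 3.43 CPM (-0.67, adjusted p = 2.83e-21). ELAVL1 (HuR), which stabilises such mRNAs, fell (-0.65), and so did TIAL1 (-0.61), a translational repressor. ZFP36L1 (0.46) and TIA1 (0.38) rose, and ZFP36 was not called (-0.01), the 3 of them named after their values were seen.

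Of 12 genes for ubiquitin ligase parts and other regulators of JUN or FOS protein, all tested, 0 rose and 10 fell, with a median of -0.26. Among 13515 tested coding genes with a chosen transcript, 36.4% were higher and 38.9% lower. Of 12099 tested genes between 5 and 500 CPM in Scramble, 3989 were higher and 5346 lower. The list mixes proteins that lower and that bind AP-1 subunits. CUL1, the scaffold of the SCF ligase, fell from 160 ± 0.209 to 101 ± 3.02 CPM (-0.66, adjusted p = 6.61e-17). CUL4A (-0.52) and DDB1 (-0.26), parts of the COP1 ligase, fell, and STUB1 (-0.53), a chaperone-linked ligase, fell too. FBXW7 and COP1, which recognise JUN and were named after their values were seen, fell by 0.27 and 0.16 on the log2 scale. DET1 and MEN1, chosen for not being called, differed by 0.19 and -0.07. With upper-quartile scaling 1 of the 12 genes was called higher and 9 lower.

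Of 17 genes that work with EGR1 or KLF10, all tested, 6 rose and 7 fell, with a median of -0.03. SKI, a repressor of TGF-β signalling, fell from 152 ± 4.55 to 85.2 ± 4.53 CPM (-0.84, adjusted p = 3.81e-18), and the receptor gene TGFBR1 fell (-0.54). KLF11, the nearest relative of KLF10, rose from 20.7 ± 1.67 to 32.3 ± 1.65 CPM (0.64, adjusted p = 1.36e-09), and SP1, a GC box factor, rose (0.34). SMAD2, SIN3A, TGFBR2 and SKIL were not called.

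Of 22 genes known as AP-1 targets 12 were tested, 7 rose and 3 fell, with a median of 0.18. TIMP1, an inhibitor of matrix proteases, rose from 16.7 ± 1.75 to 33.97 ± 1.78 CPM (1.03, adjusted p = 1.38e-13). PLAU, the urokinase gene and among the 7 that rose, went from 0.341 ± 0.0528 to 2.14 ± 0.424 CPM, a log2 fold change of 2.64. PLAU passed the filter only through its DIS3-sh1 levels, so it had to differ to be tested, and its values are given as a description. HMOX1 (-0.77), heme oxygenase, EZR (-0.25), a cortical linker, and MT1X (-1.40), a metallothionein named after its value was seen, fell. CCND1 and MT2A were not called. The other 10 genes, MMP1, IL6 and CXCL8 among them, were too low to be tested. A gene that passes the filter only through a rise had to differ, so these counts are not evidence about the whole list.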

How the data were processed

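The table deposited by the authors gives each gene an expected count, which can be fractional. The submitters' processing notes name build hg38 and the tools featureCounts 1.5.1, HISAT2 2.1.0, Bowtie2 2.3.5 and SAMtools. What each tool did, the annotation and the use of strand are not given in the sources used here. In a library, 53.2% to 56.0% of values above 0 were exactly whole as written. How the fractions arose is not given in the sources used here, so values of overlapping or near-identical genes are uncertain. The names of 3 columns matched no sample label. These were not used, and the fit planned for 3 groups was made on 2.

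Counts were rounded and tested in R 4.3.3 with edgeR 4.0.16: TMM, its expression filter by group, a two-sided quasi-likelihood F-test with robust spread, and p adjusted by Benjamini-Hochberg over the 19591 genes left. Called means an adjusted p under 0.05. Adjusted p-values without a named setting are from this test. The SE is the size of the log2 fold change over the root of F. The fit and the motif search were tested on simulated data. Alternatives were RLE and upper-quartile scaling, no filter, DESeq2 1.42.0, a replicate block and leaving out each library. Symbols were found for 61757 of 61853 identifiers, and GENCODE 29 held 58298. Members, lists and tests were chosen with earlier results of these data known. Named were the 10 genes, DIS3, the 4 tested genes per list with the lowest p, and neighbours within 5000 bases. Others are marked as named after their values were seen. The result of 1 gene that this rule names is not reported here. Transcript structure and 3′ UTRs came from GENCODE 29 and promoters from RefSeq.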

Additional observations from a re-analysis of the deposited data

How the results depend on the processing

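Between 5 and 7 of the 9 tested genes were called over the 11 alternatives, with 3 to 4 higher and 2 to 3 lower. JUN, JUND, KLF10, JUNB and FOSB kept their direction and call in each, and calls of FOSL2, FOS and EGR1 changed as given above. The log2 fold change of IER2 turned to 0.0648 with upper-quartile scaling, 0.0504 without Scramble replicate 3 and 0.0071 without DIS3-sh1 replicate 2, and ran from -0.0578 to 0.0504 when 1 library was left out. That of CCDC85B turned to 0.0163 with upper-quartile scaling, 0.0980 without Scramble replicate 1 and 0.0612 without DIS3-sh1 replicate 2, and ran from -0.200 to 0.0980 when 1 was left out. The cause was not tested. All 36 list genes chosen by the rule kept direction and call. Upper-quartile scaling moved the median of all genes from 0.02 to 0.10, which shifts each value by as much. Genes called numbered 13166 with RLE, 13216 with upper-quartile scaling, 13479 of 36392 without a filter, 11986 with DESeq2 and 12537 to 12836 when 1 library was left out, against 13130. With the replicate number as a block, 13166 genes were called (6769 higher, 6397 lower) and no member's call changed. Same-numbered libraries correlated weakly in their deviations, at 0.0374, 0.0138 and 0.0104, although each library correlated best with its own number. With 3 libraries per group these values cannot settle whether the numbers pair the libraries. The comparison of only 2 groups within a fit of 3, and all results for DIS3-sh2, were not run. FOS and FOSL1 had the fewest counts of the 10 genes, and the part of depth in their values was not tested.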
